A study of Mus musculus with 10 samples.

Results

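The 31 genes described here encode the enzymes of cholesterol synthesis, the enzymes that make, elongate and desaturate fatty acids, and the proteins that control both pathways. They were taken by symbol from a table of 55487 genes, and all 31 were found and had enough counts to be tested among 16565 genes. The data are polyA RNA sequencing libraries of 10 primary pancreatic tumours of mice of the KPF model of pancreatic cancer, on the C57BL/6J background. Of these, 5 tumours are labelled Grem1wt/wt (wild-type) and 5 are labelled Grem1∆/∆ (Grem1-deleted). Gremlin 1, the product of Grem1, is a secreted protein that blocks bone morphogenetic proteins. Mice of the deleted group had tamoxifen at 100 mg/kg and those of the wild-type group had peanut oil, in both cases daily for 5 days beginning at 5 weeks of age. Mice were used at 6 to 12 weeks. Genotype and tamoxifen went to the same animals and cannot be told apart. The labels do not name the driver of the recombination. They call the samples bulk tumour tissue, while the extraction protocol mentions sorted cells.

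Cholesterol is built from acetyl-CoA through mevalonate, isoprenoid diphosphates, squalene and lanosterol. Fatty acids are built from the same acetyl-CoA through malonyl-CoA, and are then elongated and desaturated. Both pathways are switched on by the sterol regulatory element binding proteins SREBP1 and SREBP2, membrane-bound transcription factors that are held in the endoplasmic reticulum by INSIG proteins when sterols are plentiful. SREBP2 acts mainly on cholesterol genes and SREBP1 mainly on fatty acid genes, and both usually bind together with the factors NF-Y and Sp1. Tamoxifen itself binds EBP and DHCR7, 2 enzymes late in cholesterol synthesis.

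The promoters of 4 members are shown because genes of both pathways are known SREBP targets with shared control elements, and they stand for the synthesis of mevalonate, of sterols and of fatty acids and for the feedback on SREBP. They come from RefSeq on GRCm38.p6, the assembly also called mm10, and each is the part of the 250 bases before the RefSeq start that also lies before the GENCODE start. Capitals mark TCACNCCAC, a sterol regulatory element, and CCAAT, the NF-Y box, on either strand (ATTGG is CCAAT read on the other strand).
Hmgcs1 (chr13:119690101-119690350, plus strand): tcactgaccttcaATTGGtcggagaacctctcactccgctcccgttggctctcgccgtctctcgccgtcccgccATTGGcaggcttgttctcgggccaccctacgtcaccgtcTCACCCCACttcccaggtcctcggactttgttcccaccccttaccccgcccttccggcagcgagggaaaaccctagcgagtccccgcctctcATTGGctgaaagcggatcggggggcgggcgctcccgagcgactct
Lss (chr10:76531355-76531587, plus strand): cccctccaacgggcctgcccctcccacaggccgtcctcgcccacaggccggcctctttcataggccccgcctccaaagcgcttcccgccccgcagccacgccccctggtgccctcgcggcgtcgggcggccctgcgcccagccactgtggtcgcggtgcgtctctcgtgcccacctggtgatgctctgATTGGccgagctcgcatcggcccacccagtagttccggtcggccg
Insig1 (chr5:28071162-28071362, plus strand): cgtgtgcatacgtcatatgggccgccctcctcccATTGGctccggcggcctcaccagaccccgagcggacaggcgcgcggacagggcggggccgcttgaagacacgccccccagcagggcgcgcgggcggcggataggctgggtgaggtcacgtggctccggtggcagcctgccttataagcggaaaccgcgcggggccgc
Fasn (chr11:120824548-120824797, minus strand): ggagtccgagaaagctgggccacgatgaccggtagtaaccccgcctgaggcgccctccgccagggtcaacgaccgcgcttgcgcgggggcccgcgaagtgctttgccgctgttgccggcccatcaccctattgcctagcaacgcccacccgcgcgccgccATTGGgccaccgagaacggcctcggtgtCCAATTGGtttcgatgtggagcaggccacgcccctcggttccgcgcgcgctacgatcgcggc
The Hmgcs1 promoter holds 1 match to TCACNCCAC (TCACCCCAC) and 3 to CCAAT. In the Fasn promoter a CCAAT and an ATTGG overlap. The RefSeq table held 24 of the 31 members. Searched on both strands of the full 250 bases, CCAAT was found in 19 of these 24 (79.2%), against 37.5% of 27025 genes in the table. TCACNCCAC was found in 1 of the 24 (4.17%), against 1.22% of all genes, and the E-box CACGTG in 4 (16.7%), against 6.86%. These are matches of letters in a window, and neither a match nor its absence shows whether a factor binds there.

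Each library held between 10159891 and 18571519 estimated counts, and the lowest count of any member in any library was 77 (Tm7sf2), so the spread between tumours, not counting, limited the precision. The tumour epithelium marker Epcam was at 532 to 605 CPM (counts scaled to library size) in wild-type and 172 to 559 CPM in labelled-deleted tumours. Grem1 was at 15.7, 43.1, 23.0, 3.97 and 9.48 CPM in wild-type tumours 1 to 5 and at 47.6, 110.1, 12.6, 6.83 and 23.7 CPM in labelled-deleted tumours 1 to 5, so the libraries labelled deleted did not hold less of it, and which part of the gene was deleted is not stated in the labels. Its log2 fold change (labelled-deleted over wild-type) was 1.08 (SE 0.79, edgeR adjusted p = 0.761). Leaving out labelled-deleted tumours 1 and 2 gave -0.40. Labelled-deleted tumour 1 stood apart on the first principal component of log2 CPM, which held 39.9% of the variance (125.7, against -38.0 to 12.3 in the others) and held the least Epcam. Labelled-deleted tumour 2 held transcripts of enterocytes, with 897 CPM of Apoa4 and 293 CPM of Sis against at most 4.72 and 1.16 CPM elsewhere. Where leaving out either of these tumours turned the log2 fold change of a member or moved it by more than 1.5 times, that value is given in the same paragraph.

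Ranked per kilobase of the longest coding transcript, the most abundant of the 31 genes over all 10 tumours were Scd2 at a mean of 78.4 CPM per kilobase, Acly at 65.9 and Fdps at 48.8, followed by Srebf2. On this scale the order of the first pair differed between the groups, but that order depends on the transcript length used. In CPM not divided by length, Scd2 had the higher mean in wild-type tumours too, at 340 CPM against 305 CPM for Acly. In labelled-deleted tumours the means were 516 CPM for Scd2 and 278 CPM for Acly. Per kilobase, Acly was at 69.0 ± 6.08 and Scd2 at 62.2 ± 12.9 CPM in wild-type tumours (SD, n = 5), with Acly the higher in 4 of 5. In labelled-deleted tumours Acly was at 62.8 ± 10.8 and Scd2 at 94.6 ± 14.3 CPM per kilobase, with Scd2 the higher in all 5. The least abundant on this scale were Elovl6 at 4.23, Hsd17b7 at 4.93 and Acaca at 5.65 CPM per kilobase. Between the highest and the lowest tumour, Scd1 differed 5.63-fold, Me1 4.41-fold and Elovl6 4.32-fold, whereas Fdft1 differed 1.54-fold and Ebp 1.55-fold. Scd1, Me1 and Elovl6 thus varied most between tumours. No exon of 20 members overlaps an exon of another gene. More than 10% of the exonic bases are shared in 4 members: Fdps (26.7%, with Gm43738), Fdft1 (18.3%, with Ctsb on the other strand), Hmgcs1 (12.1%) and Tm7sf2 (12.1%, with Vps51). The overlaps of Fdps and Tm7sf2 are on the same strand, where counting by strand does not separate the genes. Those of Fdft1 and Hmgcs1 are on opposite strands, and the sources used here do not say whether reads were counted by strand. The counts of all 4 may therefore include reads of the overlapping gene.

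The comparison asked whether tumours labelled Grem1-deleted differ from wild-type tumours in these genes. By edgeR's quasi-likelihood test no member had an adjusted p under 0.05, and neither did any other of the 16565 genes (0%). At an unadjusted p under 0.05 there were 8 members of 31 (25.8%), all with higher means in the labelled-deleted group: Sqle, Lss, Srebf1, Acaca, Fasn, Elovl6, Scd1 and Scd2. Over all genes tested this share was 5.93% (983 genes), or 3.47% for genes higher in the labelled-deleted group. In DESeq2 7 genes passed and none was a member, and 8 members had an unadjusted p under 0.05, as did 4.84% of the 31198 genes it tested. The lowest adjusted p of a member in DESeq2 was 0.292, for Scd2, whose adjusted p reached 0.998 in other alternatives. Of the 31 log2 fold changes (labelled-deleted over wild-type), 24 were above 0 and the median was 0.18, against 55.1% above 0 and a median of 0.027 over all genes. Without labelled-deleted tumour 2 the members' median was 0.038, and without wild-type tumour 2 it was 0.091. Without labelled-deleted tumours 1 and 2 it was 0.086, and 5 members had an unadjusted p under 0.05, as did 4.24% of 17022 genes. In bulk tissue, fewer cells of a type and less RNA per cell cannot be told apart.

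**Figure D1:**
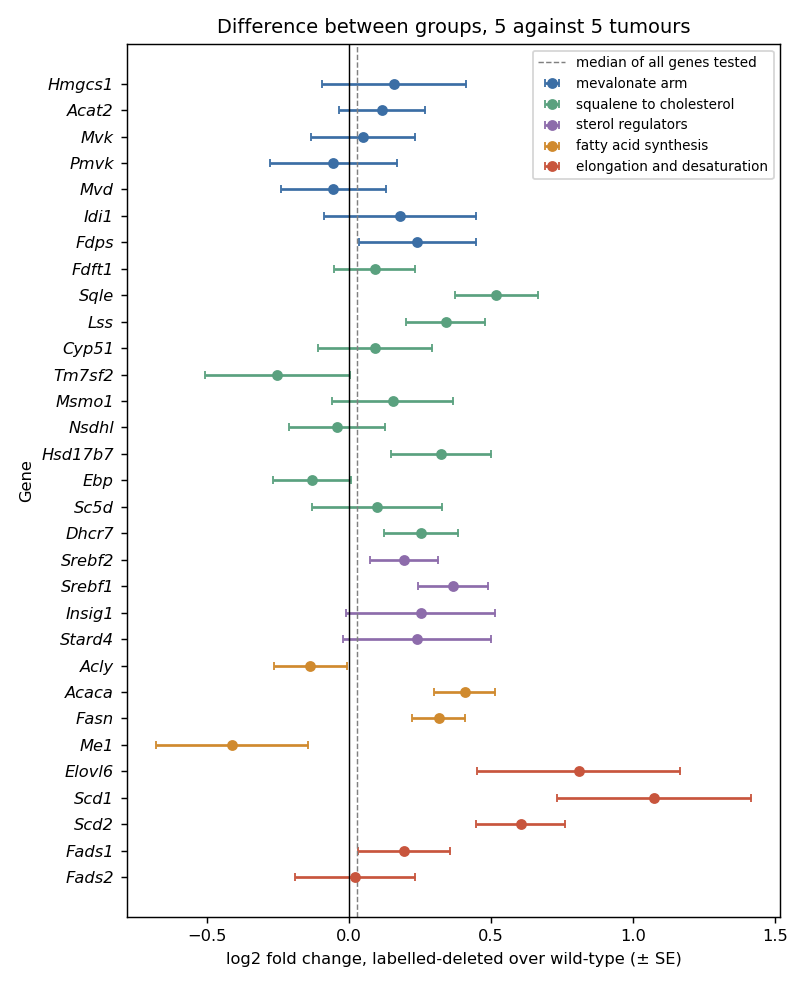
Log2 fold change of each of the 31 genes in labelled-deleted over wild-type tumours (x axis, points with SE from edgeR's quasi-likelihood fit, 5 against 5 tumours), coloured by role, with the median of all 16565 genes tested as a dashed line. The genes of elongation and desaturation reach furthest to the right, up to 1.07 for Scd1, and Me1 lies furthest to the left.

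The mevalonate arm starts with the cytosolic thiolase ACAT2 (Acat2) and HMG-CoA synthase (Hmgcs1) and ends with farnesyl diphosphate synthase (Fdps). The median log2 fold change of its 7 genes was 0.12, with 5 above 0 and 2 below, and none had an unadjusted p under 0.05. The median was -0.034 without labelled-deleted tumour 2 and 0.019 without wild-type tumour 2. When any other tumour was left out it lay between 0.05 and 0.18. Hmgcs1 was at 111, 63.5, 105, 121 and 99.5 CPM in wild-type tumours 1 to 5 and at 71.2, 168, 94.4, 84.2 and 140.4 CPM in labelled-deleted tumours 1 to 5. Labelled-deleted tumour 2 was the highest and wild-type tumour 2 the lowest, and the groups overlapped in part, with labelled-deleted tumours 2 and 5 above every wild-type tumour. Its log2 fold change was 0.16 (SE 0.25, edgeR adjusted p = 0.88), and -0.034 (SE 0.23) without labelled-deleted tumour 2. Idi1, the isomerase that makes dimethylallyl diphosphate, was at 64.9, 31.8, 52.1, 62.0 and 44.5 CPM in wild-type and 38.3, 78.7, 53.4, 38.3 and 80.2 CPM in labelled-deleted tumours. It was lowest in wild-type tumour 2 and highest in labelled-deleted tumours 5 and 2, with a log2 fold change of 0.18 (SE 0.27). Fdps, which joins isoprenoid units into farnesyl diphosphate, averaged 61.8 ± 14.6 CPM in wild-type and 73.0 ± 18.7 CPM in labelled-deleted tumours (SD, n = 5). The groups overlapped, and the log2 fold change was 0.24 (SE 0.21). The kinases and the decarboxylase between them differed least in this arm: Mvk was at 0.048 (SE 0.18), Pmvk at -0.055 (SE 0.22) and Mvd at -0.055 (SE 0.18), all within the spread between tumours and of either sign when single tumours were left out. Acat2 was at 0.12 (SE 0.15). Without labelled-deleted tumour 2, Idi1 was at 0.044, Fdps at 0.10, Mvk at -0.12, Pmvk at -0.19, Mvd at -0.15 and Acat2 at 0.00036. Without labelled-deleted tumour 1, Hmgcs1 was at 0.28, Idi1 at 0.29, Acat2 at 0.18, Pmvk at 0.082 and Mvd at 0.077. The log2 fold changes of all 7 genes were lower without labelled-deleted tumour 2.

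From squalene to cholesterol, the 11 genes had a median of 0.098 for the log2 fold change, with 8 above 0 and 3 below. The median ranged from 0.016 without wild-type tumour 2, 0.02 without labelled-deleted tumour 5 and 0.038 without labelled-deleted tumour 2 to 0.22 without labelled-deleted tumour 1. It was 0.18 without each of wild-type tumour 1, wild-type tumour 4 and labelled-deleted tumour 4. Squalene epoxidase (Sqle, chr15:59315077-59331192, plus strand in GRCm38), which adds the first oxygen to squalene and is one of the controlled steps, had the largest log2 fold change of them. It was at 45.3, 37.9, 48.6, 48.7 and 41.2 CPM in wild-type tumours 1 to 5 and at 53.1, 84.4, 50.3, 59.4 and 70.6 CPM in labelled-deleted tumours 1 to 5. Every labelled-deleted tumour lay above every wild-type tumour, with 50.3 CPM in the lowest of the former and 48.7 CPM in the highest of the latter. The log2 fold change was 0.52 (SE 0.15, edgeR unadjusted p = 0.00531, adjusted p = 0.759), and it was 0.44 (SE 0.13) without labelled-deleted tumours 1 and 2. Lanosterol synthase (Lss, chr10:76531588-76557138, plus strand), which closes the sterol rings in the next step, was at 24.8, 26.0, 23.8, 23.9 and 19.9 CPM in wild-type and 27.0, 38.5, 26.8, 24.3 and 33.1 CPM in labelled-deleted tumours. Labelled-deleted tumours 2 and 5 were the highest, and tumour 4 of that group lay below wild-type tumours 1 and 2. Its log2 fold change was 0.34 (SE 0.14, edgeR unadjusted p = 0.0334, adjusted p = 0.759).

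The other 9 genes of this stretch all had an unadjusted p of 0.05 or more. Hsd17b7, a ketosteroid reductase, was at 0.32 (SE 0.18), and Dhcr7, which makes cholesterol from 7-dehydrocholesterol and binds tamoxifen, was at 0.25 (SE 0.13). Dhcr7 was at 28.9, 23.5, 30.4, 20.3 and 26.7 CPM in wild-type and 27.0, 35.8, 27.7, 33.5 and 30.8 CPM in labelled-deleted tumours, so the groups overlapped although all 5 labelled-deleted tumours exceeded the wild-type mean. Ebp, the sterol isomerase that also binds tamoxifen, was at 45.05, 32.4, 39.14, 43.5 and 34.8 CPM in wild-type and 29.0, 40.6, 37.2, 29.7 and 41.6 CPM in labelled-deleted tumours. Its groups overlapped in part, with labelled-deleted tumours 1 and 4 below every wild-type tumour and wild-type tumours 1 and 4 above every labelled-deleted tumour, and its log2 fold change was -0.13 (SE 0.14). The lanosterol demethylase Cyp51 was at 0.092 (SE 0.20), the methyl sterol oxidase Msmo1 at 0.15 (SE 0.21), the sterol desaturase Sc5d at 0.098 (SE 0.23) and the C4-decarboxylating dehydrogenase Nsdhl at -0.043 (SE 0.17). Fdft1, the squalene synthase that commits isoprenoids to sterols, was at 0.09 (SE 0.14). The sterol reductase Tm7sf2 was at -0.25 (SE 0.25), with its lowest level, 6.85 CPM, in labelled-deleted tumour 1 against 11.5 CPM or more in the other 9 tumours. Without labelled-deleted tumour 2, Fdft1 was at 0.041, Cyp51 at -0.014, Msmo1 at 0.038, Nsdhl at -0.15 and Sc5d at -0.067. Without labelled-deleted tumour 1, Tm7sf2 was at -0.095, Ebp at -0.067, Cyp51 at 0.20, Nsdhl at 0.021 and Sc5d at 0.23. Sterol enzymes with higher and with lower means in the labelled-deleted group thus stood side by side.

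Srebf1 and Srebf2 encode the 2 SREBP proteins, and Insig1 and Stard4, themselves SREBP targets, encode the retention protein and a sterol carrier. The 4 regulators had a median log2 fold change of 0.25, all 4 above 0. The median was 0.079 without labelled-deleted tumour 2, 0.10 without wild-type tumour 2 and 0.087 without labelled-deleted tumours 1 and 2. Srebf1 (chr11:60199089-60222581, minus strand) was at 91.2, 129, 109, 105 and 100.3 CPM in wild-type tumours 1 to 5 and at 167, 147, 118, 136 and 121 CPM in labelled-deleted tumours 1 to 5. Only wild-type tumour 2 reached into the range of the labelled-deleted tumours, above tumours 3 and 5 of that group. Its log2 fold change was 0.37 (SE 0.12, edgeR unadjusted p = 0.0127, adjusted p = 0.759). Without labelled-deleted tumours 1 and 2, its highest tumours, it was 0.22 (SE 0.12). Srebf2 averaged 191 ± 22.7 CPM in wild-type and 218 ± 31.9 CPM in labelled-deleted tumours (SD, n = 5), and its log2 fold change was 0.19 (SE 0.12), or 0.12 without labelled-deleted tumour 2. Per kilobase it was the more abundant of the pair, with Srebf1 at a mean of 28.4 CPM per kilobase. The order of the tumours differed between both genes: Srebf1 was highest in labelled-deleted tumour 1 and lowest in wild-type tumour 1, Srebf2 highest in labelled-deleted tumour 2 and lowest in wild-type tumour 2. Insig1 was at 49.5, 25.4, 45.3, 50.6 and 50.5 CPM in wild-type and 50.9, 82.0, 40.7, 32.3 and 57.8 CPM in labelled-deleted tumours, again with wild-type tumour 2 lowest and labelled-deleted tumour 2 highest. Its log2 fold change was 0.25 (SE 0.26), and 0.038 (SE 0.23) without labelled-deleted tumour 2. Stard4 had the same lowest and highest tumour, and went from 0.24 (SE 0.26) to 0.023 (SE 0.23) when labelled-deleted tumour 2 was left out.

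The enzymes of fatty acid synthesis went different ways. Acaca (chr11:84129672-84401651, plus strand) encodes acetyl-CoA carboxylase 1, which makes malonyl-CoA and commits carbon to fatty acids. It was at 40.6, 52.0, 51.1, 44.1 and 43.4 CPM in wild-type tumours 1 to 5 and at 68.6, 70.0, 56.7, 58.3 and 52.8 CPM in labelled-deleted tumours 1 to 5. All labelled-deleted tumours lay above all wild-type tumours, by a narrow margin between labelled-deleted tumour 5 and wild-type tumour 2. The log2 fold change was 0.41 (SE 0.11, edgeR unadjusted p = 0.0036, adjusted p = 0.759), and 0.27 (SE 0.10) without labelled-deleted tumours 1 and 2. Fatty acid synthase (Fasn, chr11:120805846-120824547, minus strand) was at 156, 207, 199.5, 186 and 185 CPM in wild-type and 231, 236, 209.7, 222 and 261 CPM in labelled-deleted tumours. Here too the groups did not overlap, with 209.7 CPM in the lowest labelled-deleted and 207 CPM in the highest wild-type tumour. The log2 fold change was 0.32 (SE 0.095, edgeR unadjusted p = 0.00729, adjusted p = 0.759), and it lay between 0.26 and 0.34 whichever single tumour was left out. ATP citrate lyase (Acly), which supplies cytosolic acetyl-CoA to both pathways, was at 312, 266, 296, 340.0 and 312 CPM in wild-type and 203, 312, 287, 263 and 323 CPM in labelled-deleted tumours. It was lowest in labelled-deleted tumour 1, the groups overlapped, and its log2 fold change was -0.14 (SE 0.13), or -0.043 without that tumour. Malic enzyme 1 (Me1), a source of NADPH, was at 109, 105, 150.3, 96.0 and 104 CPM in wild-type and 34.1, 89.6, 99.2, 102 and 98.8 CPM in labelled-deleted tumours. All 5 labelled-deleted tumours lay below the wild-type mean, at a log2 fold change of -0.41 (SE 0.27) that was -0.21 (SE 0.13) without labelled-deleted tumour 1. The groups overlapped for Me1, with labelled-deleted tumours 3, 4 and 5 above wild-type tumour 4, and wild-type tumour 3 stood far above the other tumours.

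Sqle, Acaca and Fasn were the 3 of 31 members (9.68%) with every labelled-deleted tumour above every wild-type tumour, against 0.495% of all genes tested. No member had the opposite order, which held for 0.435% of all genes. Leaving out a tumour can only keep or raise such a count. It was 5 without wild-type tumour 2, with Srebf1 and Scd2 in addition, where 1.38% of all genes had this order. It was also 5 without labelled-deleted tumour 3, with Hsd17b7 and Scd2 in addition, where the share of all genes was 1.49%.

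**Figure D2:**
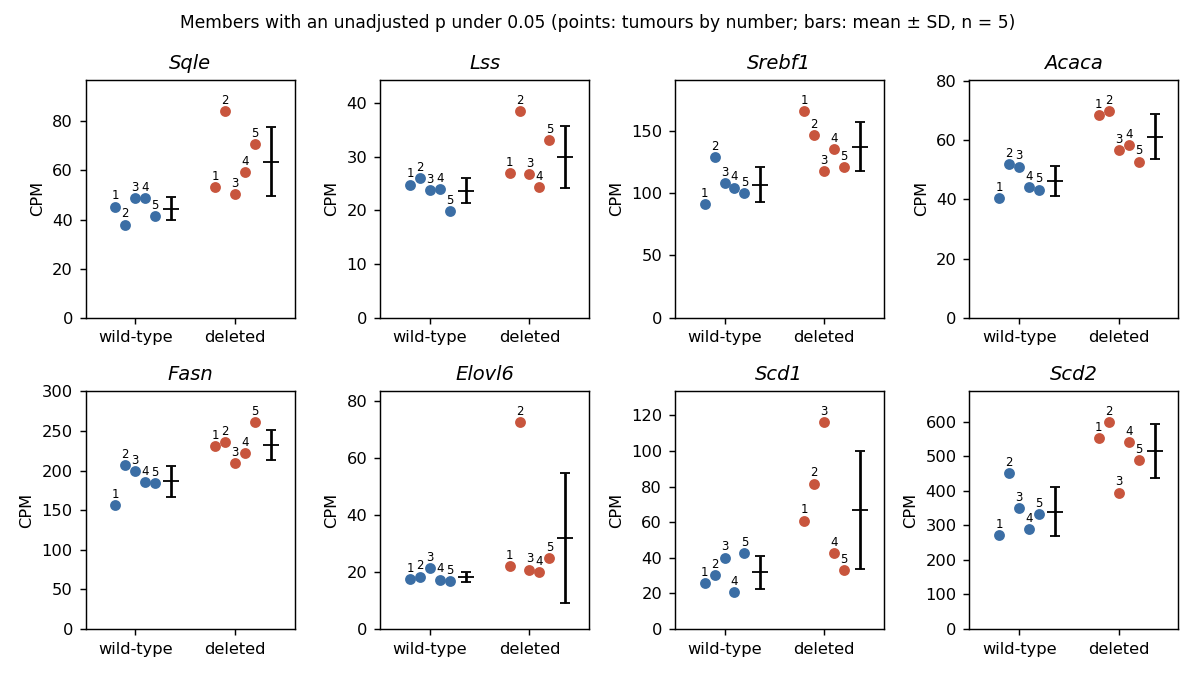
Level in CPM (y axis, from 0) of the 8 members with an unadjusted p under 0.05, for each wild-type (blue) and labelled-deleted (red) tumour, numbered, with the mean and SD of each group (n = 5). Sqle, Acaca and Fasn show no overlap between the groups, whereas in Elovl6 a single labelled-deleted tumour, at 72.7 CPM, lies far above the other 4.

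The largest log2 fold changes were among the enzymes of elongation and desaturation, whose 5 genes had a median of 0.60 and were all above 0. Without labelled-deleted tumour 2 the median was 0.26. The stearoyl-CoA desaturases put the first double bond into saturated fatty acids, and Scd2 was the more abundant of the pair in these tumours. Scd2 (chr19:44293674-44306864, plus strand) was at 273, 453, 350.0, 289.7 and 333 CPM in wild-type tumours 1 to 5 and at 553, 599.7, 395, 542 and 491 CPM in labelled-deleted tumours 1 to 5. Only wild-type tumour 2 exceeded a labelled-deleted tumour, number 3. The log2 fold change was 0.60 (SE 0.16, edgeR unadjusted p = 0.00306, adjusted p = 0.759), and 0.49 (SE 0.17) without labelled-deleted tumours 1 and 2. Scd1 (chr19:44394455-44407879, minus strand), its neighbour on the chromosome, was at 25.6, 30.3, 40.05, 20.6 and 42.4 CPM in wild-type and 60.9, 81.6, 116, 42.6 and 33.1 CPM in labelled-deleted tumours. Labelled-deleted tumours 3, 2 and 1 were the highest of all, and tumour 5 of that group lay within the wild-type range. Its log2 fold change was 1.07 (SE 0.34, edgeR unadjusted p = 0.0102, adjusted p = 0.759), and 0.76 (SE 0.29) without labelled-deleted tumour 3. Per kilobase Scd2 exceeded Scd1 in all 10 tumours, from 3.01-fold in labelled-deleted tumour 3 to 13.2-fold in wild-type tumour 2. Both genes encode related enzymes, and how well reads were split between them was not tested.

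Markers of adipocytes, a cell type that expresses Scd1 strongly, also differed between the tumours. Adiponectin (Adipoq) was highest in labelled-deleted tumour 3, the highest in Scd1, at 5.91 CPM, and was at 4.21 CPM in wild-type tumour 3 and at 1.10 CPM or less in the other 8. The summed level of 12 adipocyte markers ran from 59.7 to 151 CPM in wild-type and from 23.1 to 200.3 CPM in labelled-deleted tumours, and 5 of the 12 had enough counts to be tested, none past an adjusted p of 0.05. The sum was 200.3 CPM in labelled-deleted tumour 3, 191 CPM in labelled-deleted tumour 2 and lowest, 23.1 CPM, in labelled-deleted tumour 1, the third highest in Scd1. It did not follow Adipoq and Plin1, which were at 0.50 and 0.21 CPM in labelled-deleted tumour 2, where Gpd1 was the largest part. In wild-type tumour 2, with a sum of 59.7 CPM, Gpd1 was at 39.6 and Fabp4 at 16.6 CPM. The lipid droplet protein perilipin 1 (Plin1) was highest in labelled-deleted tumour 3, at 4.93 CPM, whereas Gpd1, Pck1 and Cidec of the same list were highest in labelled-deleted tumour 2, at 123, 29.4 and 9.51 CPM. Adipoq was not detected in wild-type tumour 5, and neither it nor Plin1 in wild-type tumour 2. The part of adipocytes in the Scd1 values was not tested.

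Elovl6, which elongates palmitate to stearate, was at 17.5, 18.4, 21.4, 17.3 and 16.8 CPM in wild-type and 22.0, 72.7, 20.9, 19.96 and 24.8 CPM in labelled-deleted tumours. Labelled-deleted tumour 2 stood far above the other 9, among which the groups overlapped. The log2 fold change was 0.81 (SE 0.36, edgeR unadjusted p = 0.0465, adjusted p = 0.759), and 0.26 (SE 0.11) without that tumour. The delta-5 and delta-6 desaturases of polyunsaturated fatty acids, Fads1 and Fads2, were at 0.19 (SE 0.16) and 0.02 (SE 0.21). Without labelled-deleted tumour 1 they were at 0.036 and 0.10, and Fads2 was at -0.044 without labelled-deleted tumour 2. Fads1 was highest in labelled-deleted tumour 1, at 98.3 CPM against at most 67.9 CPM elsewhere, and Fads2 was lowest in wild-type tumour 2.

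Across the 10 tumours many of the cholesterol genes were high or low together, in tumours of both groups. Of the 31 members, 19 (61.3%) had their highest level in labelled-deleted tumour 2, as did 13.8% of all genes tested, and 12 (38.7%) had their lowest in wild-type tumour 2, as did 7.68% of all genes. Labelled-deleted tumour 1 was the lowest for 7 members (22.6%), against 29.4% of all genes. Of the 18 enzymes of cholesterol synthesis, 17 in labelled-deleted tumour 2, 16 in labelled-deleted tumour 5, 16 in wild-type tumour 1 and 14 in wild-type tumour 4 lay above the gene's median over the tumours. In wild-type tumours 2 and 5 and labelled-deleted tumours 1, 3 and 4 the number was 4, 1, 5, 5 and 4 of 18, and in wild-type tumour 3 it was 8. Over all genes tested, between 48.9% and 52.2% lay above their median in each tumour. Both groups thus held tumours with high and with low levels of the cholesterol enzymes.

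**Figure D3:**
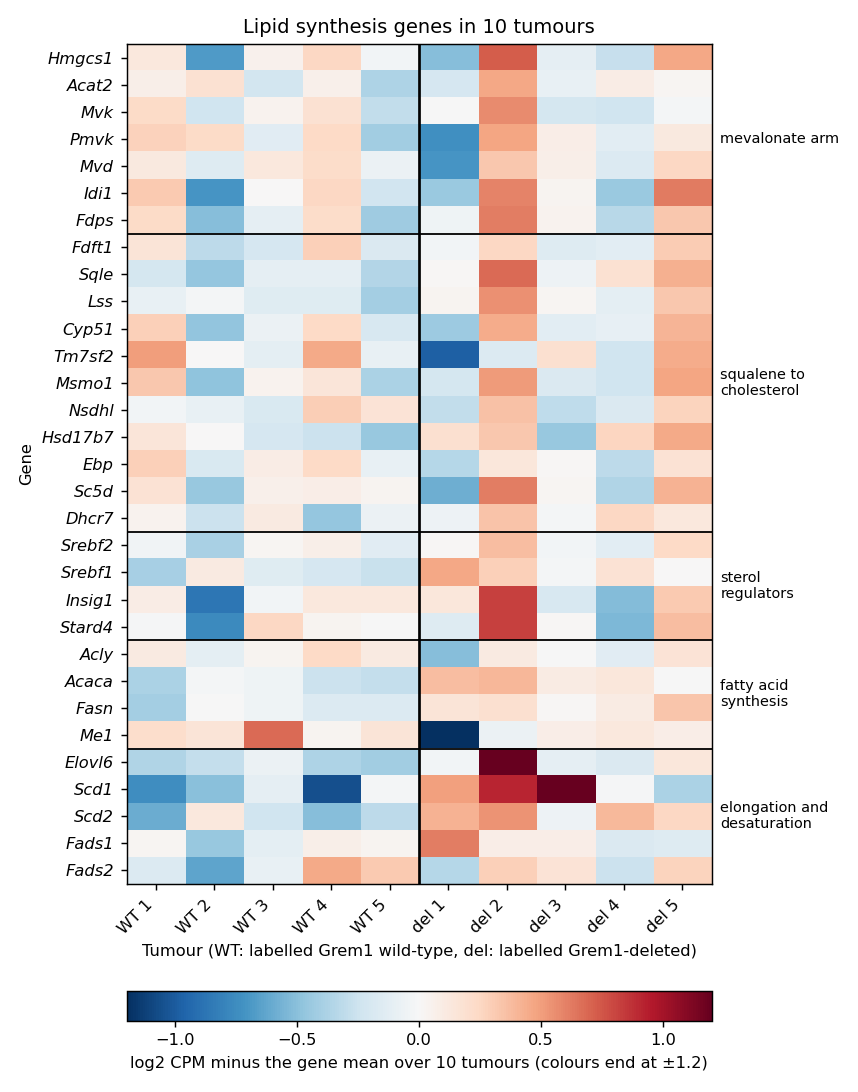
Level of each of the 31 genes (rows, by role) in each tumour (columns) as log2 CPM minus the mean of the gene over the 10 tumours, on a colour scale that ends at ±1.2. Rows of cholesterol synthesis are mostly red in labelled-deleted tumours 2 and 5 and mostly blue in wild-type tumour 2, while Acaca, Fasn, Scd1 and Scd2 are mostly red across the labelled-deleted tumours.

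The summed level of the 18 cholesterol enzymes was 827, 572, 713, 818 and 639 CPM in wild-type tumours 1 to 5 and 611, 1040, 701, 660.1 and 947 CPM in labelled-deleted tumours 1 to 5. These sums overlapped between the groups. The 9 enzymes of fatty acid synthesis, elongation and desaturation summed to 1047, 1214, 1219, 1136 and 1171 CPM in wild-type and to 1315, 1596, 1314, 1353 and 1408 CPM in labelled-deleted tumours. These sums did not overlap, and Scd2, Acly and Fasn, the most abundant of the 9, weigh most in them. Without Scd2 the sums overlapped between the groups. The 4 enzymes of fatty acid synthesis alone, Acly and Fasn among them, also overlapped. They summed to 617 to 697 CPM in wild-type and 537 to 736 CPM in labelled-deleted tumours. The median log2 fold change was 0.11 for the cholesterol enzymes and 0.32 for the fatty acid enzymes. Without labelled-deleted tumour 2 these were -0.0068 and 0.26, and without labelled-deleted tumour 1 0.21 and 0.32. The median of the cholesterol enzymes was also 0.017 without wild-type tumour 2, 0.037 without labelled-deleted tumour 5, and 0.16 and 0.17 without wild-type tumours 1 and 4 in turn. Whether both sets of enzymes differ from each other in their group difference was not tested.

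Markers of other cell types moved with some of these tumours. The 8 enterocyte markers summed to 3028 CPM in labelled-deleted tumour 2, the highest for 19 members, and to 8.22 CPM in labelled-deleted tumour 5, where the cholesterol enzymes were second highest. Across the other 9 tumours the enterocyte sum lay between 6.07 and 19.5 CPM, and Sis was at 0 in all 5 wild-type tumours. The 8 tumour epithelium markers summed to 4942 to 6106 CPM in wild-type and 1869 to 5253 CPM in labelled-deleted tumours. The sum of 1869 CPM was in labelled-deleted tumour 1, and the next lowest was 3589 CPM in labelled-deleted tumour 3. All 8 markers had log2 fold changes below 0, with 0 past an adjusted p of 0.05 in edgeR. In the same test 4 (Krt7, Krt18, Cldn4 and Muc1) had an unadjusted p under 0.05, as did 5.93% of all genes tested in either direction. The lowest epithelial sum and the highest proliferation sum (1087 CPM, against 537 CPM or less elsewhere) were both in labelled-deleted tumour 1, the lowest tumour for Me1, Acly, Mvd, Pmvk, Tm7sf2, Ebp and Sc5d. These are 22.6% of the members, and the same tumour was lowest for 29.4% of all genes tested. The 8 acinar markers summed to 74.2 CPM in labelled-deleted tumour 2 and 11808 CPM in labelled-deleted tumour 5, so the tumours with the most cholesterol enzyme transcripts lay near both ends of acinar content. Macrophage markers summed to 2199 to 3835 CPM in wild-type and 834 to 3291 CPM in labelled-deleted tumours, fibroblast markers to 14739 to 27396 and 8004 to 27822 CPM, and endothelial markers to 204 to 489 and 119.9 to 447 CPM. Lymphocyte markers reached 189 CPM in labelled-deleted tumour 3. The hepatocyte list summed to 195 CPM in labelled-deleted tumour 2, where Cps1 was at 172 CPM and Apoc3 at 9.51 CPM. Alb was at 0.21, Hpx at 1.42 and Fgb at 0 CPM in that tumour. These last genes were highest in wild-type tumour 1, at 6.21, 22.2 and 22.8 CPM. The part of these cell types in the members' values was not tested.

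**Figure D4:**
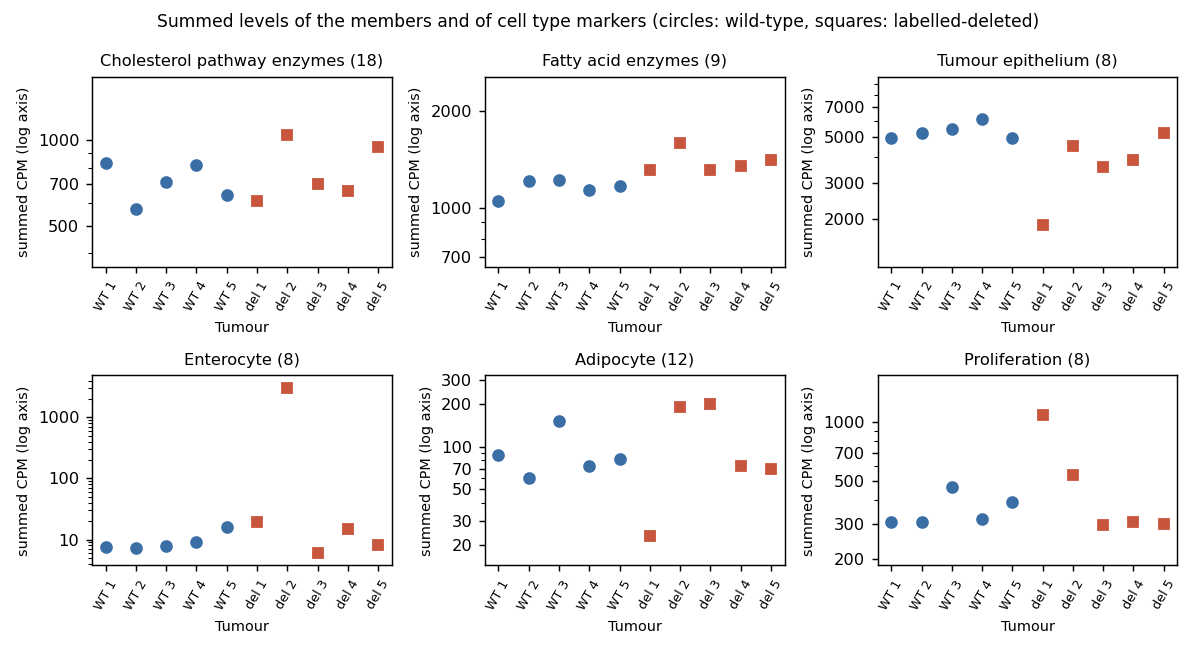
Summed CPM per tumour (y axes, logarithmic and different for each panel) of the 18 cholesterol enzymes, the 9 fatty acid enzymes and 4 marker lists, with circles for wild-type and squares for labelled-deleted tumours. The enterocyte panel has 1 tumour near 3028 CPM, labelled-deleted tumour 2, which is also highest in both enzyme panels.

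Of 99 further genes of lipid metabolism in 7 lists, 94 were tested, 0 passed an adjusted p of 0.05 in edgeR and 4 had an unadjusted p under 0.05. That share was no larger than the 5.93% over all genes tested. The 9 genes that process SREBP or sense sterols, such as Scap and the proteases Mbtps1 and Mbtps2, had a median log2 fold change of 0.055 with 0 at an unadjusted p under 0.05. Those with the smallest p were Erlin2 at -0.21 (SE 0.14) and Rnf139 at 0.19 (SE 0.13). Among 11 genes of the isoprenoid side branches the median was -0.0066, and Pdss1, a subunit of the enzyme that makes the tail of coenzyme Q, had the smallest p. Pdss1 was at 6.21, 5.74, 4.79, 5.37 and 6.05 CPM in wild-type and 8.54, 18.4, 8.37, 7.85 and 7.17 CPM in labelled-deleted tumours. Every labelled-deleted tumour lay above every wild-type tumour, as was so for 0.495% of all genes tested. The log2 fold change of Pdss1 was 0.84 (SE 0.27, edgeR unadjusted p = 0.0101, adjusted p = 0.759), and 0.50 (SE 0.15) without labelled-deleted tumour 2. Ggps1, which makes geranylgeranyl diphosphate, was at 0.17 (SE 0.12). The 8 genes of liver X receptor signalling and sterol efflux had a median of 0.11, with Mylip at 0.37 (SE 0.20) and Smpdl3a at -0.26 (SE 0.21). The 12 genes of sterol uptake, storage and transport had a median of 0.014, with the sterol transporter Stard3 at -0.33 (SE 0.11, edgeR unadjusted p = 0.0157) and the cholesteryl ester hydrolase Nceh1 at 0.37 (SE 0.27). Nceh1 was at -0.0011 (SE 0.11) without labelled-deleted tumour 1.

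The remaining lists concern fatty acids. Of 29 other genes of fatty acid synthesis and elongation, 25 were tested and their median was 0.019. Hacd1 and Hacd2, dehydratases of the elongation cycle in which Elovl6 acts, had the smallest p there, at -0.29 (SE 0.12) and -0.26 (SE 0.10, edgeR unadjusted p = 0.0322 and 0.0277). These differences had the opposite sign to those of Elovl6 and Acaca. Of the other stearoyl-CoA desaturase genes, Scd3 was at most at 1.57 CPM and Scd4 at most at 0.57 CPM in any tumour. The 16 genes of fatty acid activation and triglyceride storage had a median of 0.033, with Acsl3 at 0.32 (SE 0.16) and Lpin1 at -0.23 (SE 0.11). Of 14 genes of fatty acid oxidation, 13 were tested with a median of 0.085. The mitochondrial fatty acid importer Cpt1a was at -0.25 (SE 0.18) and the short-chain dehydrogenase Acads at -0.16 (SE 0.16).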

How the data were processed

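RNA was sequenced from 10 primary pancreatic tumours, 5 per group. The submitters' processing notes name RSEM 1.3.3, HISAT2 2.2.1 and DESeq2 1.32.0, beside the demultiplexer bcl2fastq 2.0, FastQC 0.11.9 and the mm10 build. The authors deposited estimated counts per gene (7.96% of values not whole) and log2 normalized expression values, which were used only as an alternative. The strand setting of the counting is not stated there.

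Counts were rounded and tested over 16565 genes (filterByExpr, minimum count 10) with edgeR 4.0.16 (R 4.3.3), using TMM scaling, a robust quasi-likelihood fit and Benjamini-Hochberg adjustment. Standard errors come from the F statistic. Levels are CPM on scaled library sizes, and log2 CPM values have a prior count of 2. Alternatives were DESeq2 1.42.0, limma 3.58.1 (voom, and on the deposited log2 values), other scalings and filters, a replicate block and leaving out tumours. Scripts were tested on simulated data. Replicates are separate tumours per the labels, and no pair agreed within sampling noise.

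The members, gene lists and tests were chosen with earlier results of these data known. The 8 members described most fully are those with an unadjusted p under 0.05. Of each pathway list the 2 tested genes with the smallest p are named, of cell type lists the first genes of the list, and others after their values were seen. Intervals of the reference annotation are from GENCODE M21 on GRCm38, in which 55141 of the 55487 identifiers were found.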

Additional observations from a re-analysis of the deposited data

Results flagged for a closer look

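Among 78 sets of 5 tumours (each of 31 members and 8 overlapping groupings of them, in each genotype group), 8 held a tumour set apart from the other 4 by more than 0.71 of the range. About 3.9 such sets would be found by chance.

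In labelled-deleted tumour 2, Mvk was at 22.1 CPM, with 14.9 CPM in the next tumour of the group, and Elovl6 at 72.7 CPM, with 24.8 CPM in the next. This is the tumour with enterocyte transcripts. In labelled-deleted tumour 1, Me1 was lowest at 34.1 CPM, with 89.6 CPM in the next tumour, and Fads1 was highest at 98.3 CPM, with 67.9 CPM in the next.

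In wild-type tumour 2, Insig1 was lowest at 25.4 CPM, with 45.3 CPM in the next tumour, and Sc5d was lowest at 30.9 CPM, with 43.5 CPM in the next. The median deviation of the 4 regulators from their means was -0.58 log2 units in that tumour, with -0.07 in the next. In wild-type tumour 3, Me1 was highest at 150.3 CPM, with 108.6 CPM in the next.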

How the results depend on the processing

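No member passed an adjusted p of 0.05 under any of 19 alternatives, and the lowest was 0.292, for Scd2 in DESeq2. Over all genes, DESeq2 called 7 and each of the other alternatives 0. The number of members with an unadjusted p under 0.05 was 5 without labelled-deleted tumours 1 and 2, where 4.24% of all genes had one, and 6 to 9 when 1 tumour was left out, where 3.69% to 9.82% of all genes had one. The number with all labelled-deleted tumours above all wild-type tumours, which leaving out a tumour can only keep or raise, was 3 to 5 when 1 was left out, with 0.736% to 1.49% of all genes. The median log2 fold change of elongation and desaturation was 0.255 without labelled-deleted tumours 1 and 2, and 0.26 to 0.72 when 1 tumour was left out. On the deposited log2 values the median was 0.11 for all members and 0.16 for the regulators. The SEs of the members were smaller there too. Fasn, for example, was at 0.24 (SE 0.070), against 0.32 (SE 0.095) in the main fit. These medians therefore cannot be compared directly with those of the other fits.

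Of the 31 members, 21 kept their direction under all 19 alternatives. Without labelled-deleted tumours 1 and 2 the direction reversed for Mvk (-0.16), Mvd (0.0053), Insig1 (-0.024), Fads1 (-0.0053) and Grem1 (-0.40). When 1 tumour was left out, log2 fold changes ran from -0.034 to 0.28 for Hmgcs1, -0.12 to 0.11 for Mvk, -0.19 to 0.082 for Pmvk, -0.15 to 0.077 for Mvd, -0.015 to 0.20 for Cyp51, -0.15 to 0.028 for Nsdhl, -0.067 to 0.23 for Sc5d, -0.12 to 0.15 for Fads2 and -0.0011 to 0.46 for Nceh1. The causes of these changes were not tested.

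The groups share replicate numbers, but the deviations of same-numbered tumours correlated at only 0.0687, 0.107, 0.317, -0.0157 and 0.387. The replicate numbers were therefore not taken as pairs, and tumours 3 and 5 alone correlated best with their own number. The sample titles also hold an identifier that several tumours share, within and between the groups. Wild-type tumours 1, 3, 4 and 5 correlated best with labelled-deleted tumours 2, 3, 5 and 5 in turn, which share their identifier. Wild-type tumour 2 correlated best with labelled-deleted tumour 4, which does not. Wild-type tumours 4 and 5 share also the digit after the identifier, as do wild-type tumour 1 and labelled-deleted tumour 2. What this identifier stands for is not stated in the labels, and it was not used as a block. The SEs and p-values of the main fit therefore treat the tumours as independent, and whether they are was not tested. With the replicate number as a block, 0 genes passed, 6 members had an unadjusted p under 0.05, as did 4.71% of all genes, and no member passed.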

Other observations

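Some genes that handle lipid in other cell types were high in labelled-deleted tumours 2 or 3. They were chosen after their values were seen, and their place in the members' values was not tested. In labelled-deleted tumour 2, the triglyceride synthesis enzyme Dgat1 was at 139 CPM against at most 28.0 CPM elsewhere, and the fatty acid activating enzyme Acsl5 at 270.1 CPM against at most 137 CPM. Mlxipl, which encodes the carbohydrate-responsive activator of fatty acid synthesis genes, was at 35.1 CPM there and at most 6.45 CPM elsewhere. In labelled-deleted tumour 3, Thrsp, a lipogenic gene of adipose tissue and liver, was at 8.04 CPM, against at most 0.72 CPM elsewhere.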
